A study of Mus musculus with 22 samples.

Results

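The receptors for prostaglandin E2 were described here across the hypothalamus arrays of a fever study in mice. They were the 4 genes Ptger1, Ptger2, Ptger3 and Ptger4, which encode the receptors EP1, EP2, EP3 and EP4, out of 19935 genes tested. They were chosen by symbol in the platform annotation. Each had 1 probe set with a single symbol, namely 10573210 for Ptger1, 10414271 for Ptger2, 10497079 for Ptger3 and 10427461 for Ptger4, so no averaging over probe sets was involved and all 4 were measured. The animals were male C57bl6 mice aged 9 to 12 weeks, either labelled IL-6 KO (deficient in interleukin-6) or WT, their wild-type littermates. They were given a single injection into the peritoneum of lipopolysaccharide (LPS) from Escherichia coli, a bacterial cell wall component that causes fever. The dose was 120 µg/kg, and controls received saline. Tissue was taken 3 h later, after saline perfusion. There were 4 WT arrays after saline, 7 WT arrays after LPS, 4 KO arrays after saline and 7 KO arrays after LPS. The labels did not say how the Il6 gene was altered, nor that each array held 1 mouse. The p-values therefore describe how arrays of a group vary, which may be technical.

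Prostaglandin E2 is the main lipid messenger of fever. During inflammation it is made in brain blood vessels by the inducible cyclooxygenase encoded by Ptgs2 and the synthase encoded by Ptges, and it acts on neurons of the preoptic hypothalamus, where EP3 is known to be needed for the febrile response. The 4 receptors are G protein-coupled receptors with different partners: EP1 raises intracellular calcium, EP2 and EP4 raise cyclic AMP through the stimulatory G protein, and EP3 mostly lowers cyclic AMP through the inhibitory G protein.

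None of the 4 receptor genes passed the test for an effect of LPS, of IL-6 deficiency or of the interaction between them. In 28 tests (4 genes in 7 comparisons) limma called 0 at an adjusted p under 0.05, the smallest adjusted p being 0.460, and 1 test had an unadjusted p under 0.05. Over all genes the share called in a comparison ran from 0% to 2.76%, so 0 among 4 genes is near the background. At an unadjusted p under 0.05 the share of all genes ran from 1.64% to 16.3%. The receptor differences lay between -0.11 and 0.082 on the log2 scale, with standard errors (SE) from 0.037 to 0.097. Over the 8 LPS effects, 4 in each genotype, the 95% confidence intervals ran from 0.837-fold to 1.12-fold. On the same arrays Ptgs2 rose 2.93-fold in WT and 2.55-fold in KO. The intervals are not adjusted for the number of tests.

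The targeted gene did not separate the genotypes: after LPS the mean of Il6 was 0.072 ± 0.14 (SD, n = 7) on WT arrays and 0.24 ± 0.20 (SD, n = 7) on KO arrays, a difference of 0.17 (SE 0.070, limma adjusted p = 0.397). Il6 rose after LPS on the arrays labelled KO, by 0.36 (SE 0.082, limma adjusted p = 0.0193), and had an LPS effect of 0.21 (SE 0.082, limma adjusted p = 0.457) on those labelled WT. The KO call was lost in 7 of 31 alternative fits. The difference between the 2 effects, 0.15 (SE 0.12), was not called (limma adjusted p = 0.999994). Averaged over the genotypes, the LPS effect of Il6 was 0.29 (SE 0.058, limma adjusted p = 0.00324). KO and WT below are the genotypes of the labels, which this gene did not bear out. Whether the Il6 probe set lies in the altered part of the gene is not known.

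The values are log2 differences from the median of a probe set over the 22 arrays, so they carry no level, and no receptor was set against another. Some information on level remained in the rounding of the numbers. All values of the 4 receptor genes between 0.001 and 0.5 in size (20 to 22 arrays a gene) fell, to within 0.03 of a step, on whole multiples of the step that single-precision numbers from 4 to 8 have. Of the coarser step of numbers from 8 to 16, between 35% and 59.1% of a gene's values were whole multiples. Signals below 8 on the log2 scale would give that step. It was found for 80.2% of all probe sets and for 99.5% of 1035 probe sets of olfactory receptor genes, which have little expression in brain, while 93.1% of 159 probe sets of ribosomal protein genes had the coarser step. Whether the receptor probe sets lay above background is therefore not known, and a dim probe set understates a change in RNA. Of 15429 genes with 1 probe set and the finer step, 1.78% were called in the WT LPS comparison, among them Ptgs2. Of 3362 genes with 1 probe set and the coarser step, 1.61% were called in it. The part of low signal in the receptor results was not tested. Of 13 measured genes of hypothalamic regions, the hormone genes Avp, Oxt, Hcrt and Pmch had the coarser step.

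EP3 is the receptor most closely tied to fever. Ptger3 had values of 0.0066, 0.066, -0.032 and 0.22 on the 4 WT saline arrays. After LPS the 7 WT values ran from -0.073 to 0.074 with a median of -0.016. Of the WT saline arrays 1 stood above all WT LPS arrays, and the other 3 lay within their range. The difference was -0.067 (SE 0.053, 95% interval -0.18 to 0.042, limma adjusted p = 0.9997). Without WT saline replicate 4, the array at 0.22, it was -0.016. In KO the saline arrays had values of -0.097, 0.000011, 0.065 and 0.054. The 7 KO LPS arrays ran from -0.15 to 0.12 with a median of -0.060, so that the KO saline arrays lay inside the LPS range. The KO difference of -0.033 (SE 0.053, 95% interval -0.14 to 0.076) did not pass the test either (limma adjusted p = 0.9998). Group means, from the lowest, followed the order KO LPS, WT LPS, KO saline and WT saline, and each step between neighbours was smaller than the SD of either group.

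EP4, a receptor on neurons and on cells of blood vessels and the immune system, came closest to a genotype difference after LPS. Ptger4 lay at 0.028, -0.0086, 0.052 and -0.074 on the WT saline arrays and between -0.064 and 0.15, with a median of 0.050, on the WT LPS arrays. KO saline arrays had -0.030, -0.21, 0.096 and 0.11, the widest saline spread of this gene (SD 0.148, n = 4, against 0.0549, n = 4, in WT). KO LPS arrays ran from -0.19 to 0.096 with a median of -0.050. The KO and WT ranges after LPS overlapped. The KO mean after LPS was -0.057 ± 0.099 (SD, n = 7) and the WT mean 0.043 ± 0.080 (SD, n = 7), a difference of -0.10 (SE 0.052, 95% interval -0.21 to 0.0063, limma adjusted p = 0.460). The LPS effect was 0.044 (SE 0.061, adjusted p = 0.9997, limma) in WT and -0.048 (SE 0.061, adjusted p = 0.9998, limma) in KO. The difference between these effects, -0.092 (95% interval -0.27 to 0.085), was not called (limma adjusted p = 0.999994). From the lowest mean, the groups were ordered KO LPS, KO saline, WT saline and WT LPS, with every step between neighbours below the SD of either group.

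EP2 raises cyclic AMP, as EP4 does. Ptger2 had -0.13, 0.036, -0.061 and -0.034 on the WT saline arrays and between -0.11 and 0.13, with a median of 0.019, on the WT LPS arrays. Values on the KO saline arrays were -0.065, 0.016, 0.14 and 0.046, and those on the KO LPS arrays ran from -0.12 to 0.18 with a median of -0.0029. All 4 groups overlapped. The LPS effect was 0.058 (SE 0.053, 95% interval -0.052 to 0.17) in WT and -0.021 (SE 0.053, 95% interval -0.13 to 0.088) in KO. The largest genotype difference of this gene was after saline, 0.082 (SE 0.060, 95% interval -0.041 to 0.21, limma adjusted p = 0.840). The group means followed the order WT saline, WT LPS, KO LPS and KO saline, with neighbours closer than the SD of either group.

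EP1 couples to calcium signals. Ptger1 was the receptor gene with the lowest p for an LPS effect. Its WT saline values were 0.050, 0.087, 0.074 and 0.15, and its WT LPS values ran from -0.13 to 0.12 with a median of -0.015. The WT groups overlapped, since 2 LPS arrays, at 0.12 and 0.11, lay above 3 of the saline arrays. On the KO saline arrays it lay at 0.14, -0.074, 0.18 and -0.11, and on the KO LPS arrays between -0.35 and 0.027 with a median of -0.040. The KO saline arrays overlapped both the KO LPS and the WT saline arrays. The LPS effect was -0.090 (SE 0.068, 95% interval -0.23 to 0.051) in WT and -0.11 (SE 0.068, 95% interval -0.26 to 0.027) in KO. The LPS effect averaged over the genotypes was -0.10 (SE 0.048, 95% interval -0.20 to -0.0025), with an unadjusted p of 0.045 and a limma adjusted p of 0.523. In that comparison 9.13% of all genes had an unadjusted p under 0.05. Leaving out each array in turn, the averaged effect of Ptger1 ran from -0.13 to -0.077. Without KO LPS replicate 5, the array at -0.35, 0 of the 28 receptor tests had an unadjusted p under 0.05 by limma. This also held without some other single arrays, such as KO LPS replicate 7. The order of group means was KO LPS, WT LPS, KO saline and WT saline, and only the last step, 0.057, exceeded the SD of a neighbouring group (0.043 in WT saline).

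**Figure D1:**
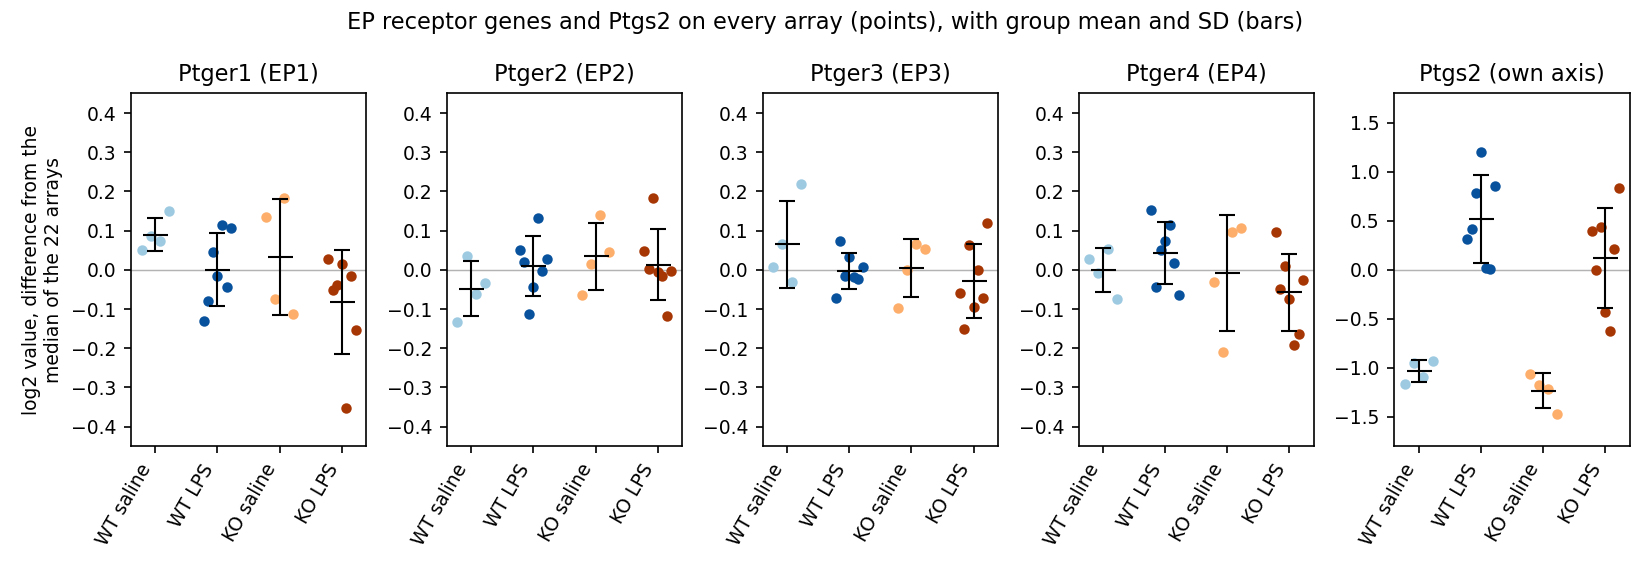
Log2 values of Ptger1, Ptger2, Ptger3, Ptger4 and Ptgs2 (vertical axes, differences from the median of the 22 arrays; Ptgs2 has a wider axis) in the 4 groups, with 1 point per array and bars for the group mean and SD (n = 4 after saline, n = 7 after LPS). For each receptor gene the LPS and saline arrays of a genotype overlap, as do KO and WT arrays of a treatment, while all Ptgs2 values after LPS lie above all those after saline.

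Each comparison was read against the share of all genes called in it. In the WT LPS effect 0 of the 4 receptor genes were called by limma, beside 1.8% of all genes, and in the KO LPS effect 0 of 4, beside 1.34%. Averaged over the genotypes, the LPS effect had 0 of 4 called, beside 2.76%. Between the genotypes the counts were 0 of 4 after LPS (all genes 0.0401%), 0 of 4 after saline (0.00502%) and 0 of 4 averaged over treatments (0.0251%). In the interaction 0 receptor genes and 0% of all genes were called. At these shares a count of 0 among 4 genes is near the background in all 7 comparisons. At an unadjusted p under 0.05 the receptor genes numbered 0 in the LPS effect in WT (all genes 6.42%), 0 in that in KO (5.84%) and 1, Ptger1, in the averaged one. They numbered 0 in KO against WT after LPS (11.4%), after saline (5.17%) and averaged (16.3%), and 0 in the interaction (1.64%).

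The intervals give the size of change that the arrays leave possible. After LPS in WT, the upper bounds were 1.04-fold for Ptger1, 1.12-fold for Ptger2, 1.03-fold for Ptger3 and 1.12-fold for Ptger4. The lower bounds were 0.852-fold for Ptger1, 0.965-fold for Ptger2, 0.885-fold for Ptger3 and 0.945-fold for Ptger4. For KO against WT after LPS, the comparison named in the series' design, the bounds over the 4 genes reached from 0.866-fold to 1.07-fold. These bounds hold for the array signal and share the limit on dim probe sets given above.

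**Figure D2:**
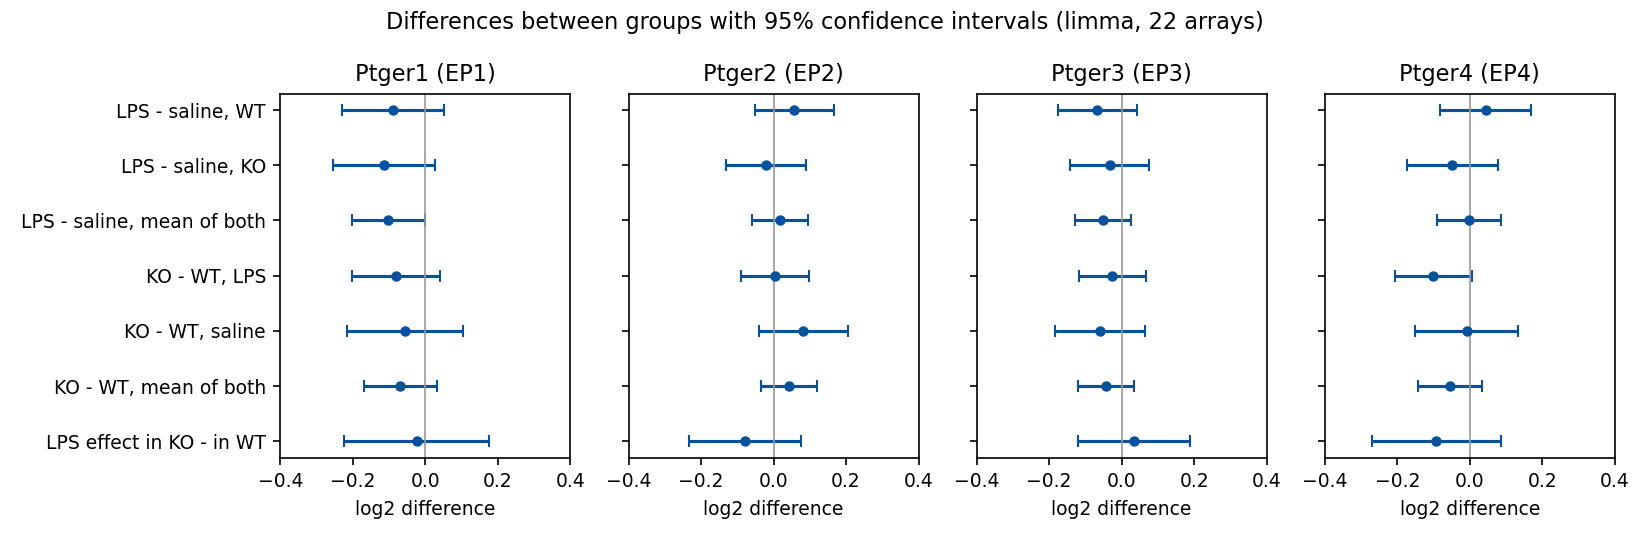
Log2 differences (horizontal axes) of the 4 receptor genes in the 7 comparisons (rows), as points with 95% confidence intervals from limma over 22 arrays. Every point lies between -0.11 and 0.082, and 1 of the 28 intervals, that of Ptger1 in the averaged LPS effect, leaves out 0.

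The receptor genes varied about as much as other genes from array to array. Over all 22 arrays the SD was 0.122 for Ptger1, 0.0803 for Ptger2, 0.0823 for Ptger3 and 0.0993 for Ptger4, beside a median of 0.105 over all genes and 0.824 for Ptgs2. All but 1 of the receptor values lay within 0.25 of 0. The exception was Ptger1 at -0.35 on KO LPS replicate 5. Array number mattered for many genes: with the groups in the fit, 21.5% of all genes had a called difference between array numbers 1 to 11 and 12 to 22. Genotype was unevenly spread over these blocks: after LPS, WT had 5 arrays in the first and 2 in the second and KO 2 and 5, and after saline WT had 3 and 1 and KO 1 and 3. For KO against WT after LPS, Ptger4 had -0.047 within arrays 1 to 11, -0.066 within arrays 12 to 22 and -0.067 with the blocks as a term, against -0.10 without it. None of the 4 receptor genes had a called difference between the blocks, the nearest being Ptger3 with 0.092 (SE 0.036, unadjusted p = 0.0165, limma adjusted p = 0.0690). Within arrays 1 to 11 the LPS effect of Ptger3 in WT was -0.014, and within arrays 12 to 22 it was -0.23 (SE 0.095, adjusted p = 0.681, limma), where WT had 1 saline and 2 LPS arrays. In the fit with the array blocks as a term, and within either block, 0 receptor tests were called, with differences from -0.23 to 0.19.

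Tissue carried over from outside the hypothalamus differed between arrays. Ttr, a choroid plexus product, reached 4.62 in WT saline replicate 1, and the pituitary hormone gene Gh reached 3.96 in KO saline replicate 2. Prkcd, a marker of the thalamus, where EP3 is also known to be expressed, ranged from -1.44 to 0.48. WT saline replicate 4, with Ptger3 at 0.22, had Prkcd at -1.02 and Tcf7l2, another thalamus marker, at -0.48. KO LPS replicate 7, the highest in Prkcd, had Ptger3 at 0.12 and Tcf7l2 at 0.010. The array lowest in Prkcd, WT LPS replicate 4, had Ptger3 at 0.032. The array highest in Tcf7l2, WT saline replicate 3 at 0.29, had Ptger3 at -0.032. The part of thalamus tissue in the Ptger3 values was not tested. Also high in Ttr or Gh were WT LPS replicate 5 (Ttr 2.80) and KO LPS replicate 3 (Gh 3.76). WT saline replicate 1, KO saline replicate 2, WT LPS replicate 5 and KO LPS replicate 3 are named below the 4 arrays with carried-over tissue. Without them, 0 of the 28 receptor tests were called, with differences from -0.17 to 0.068. That fit was not free of such tissue. Arrays kept in it had Ttr at 2.43 (WT LPS replicate 2) and 1.98 (KO LPS replicate 4) and Gh at 2.20 (KO LPS replicate 5). Markers of brain endothelial cells, which are thought to carry part of the EP4 of this tissue, moved with LPS in part: of 8 measured, 6 fell in WT and 5 in KO by limma, beside 0.376% and 0.256% of all genes. The other direction was taken by Cdh5, an endothelial cadherin, with 0.31 in WT and 0.13 in KO, and Slc2a1, a glucose transporter, with 0.19 and 0.22, none of them called (limma adjusted p from 0.147 to 0.9998). The mean of the 8 ran from 0.24 to 0.40 on WT saline arrays and from -0.21 to -0.097 on WT LPS arrays. In KO it ran from 0.30 to 0.47 after saline and from -0.082 to 0.15 after LPS. In whole tissue, fewer cells of a type and less RNA per cell cannot be told apart. The part of these markers in the receptor values was not tested.

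No pair of receptor genes passed a test for varying together across arrays. For each of the 6 pairs the values less their group mean were correlated over 22 arrays, with permutations within groups and adjustment over the 6 pairs. The highest Pearson correlation was between Ptger2 and Ptger4, which share the stimulatory G protein, with r = 0.390 (permutation p = 0.111, adjusted p = 0.464) and Spearman's rho = 0.477 (permutation p = 0.0419, adjusted p = 0.251). Without the 2 arrays farthest from the median of Ptger2 its r was 0.310, and within arrays 1 to 11 and 12 to 22 it was 0.234 and 0.569. Ptger2 and Ptger3 had r = 0.343 (permutation p = 0.155, adjusted p = 0.464) and rho = 0.313. The other 4 pairs had r between -0.143 and 0.237, and no pair passed at an adjusted p under 0.05.

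**Figure D3:**
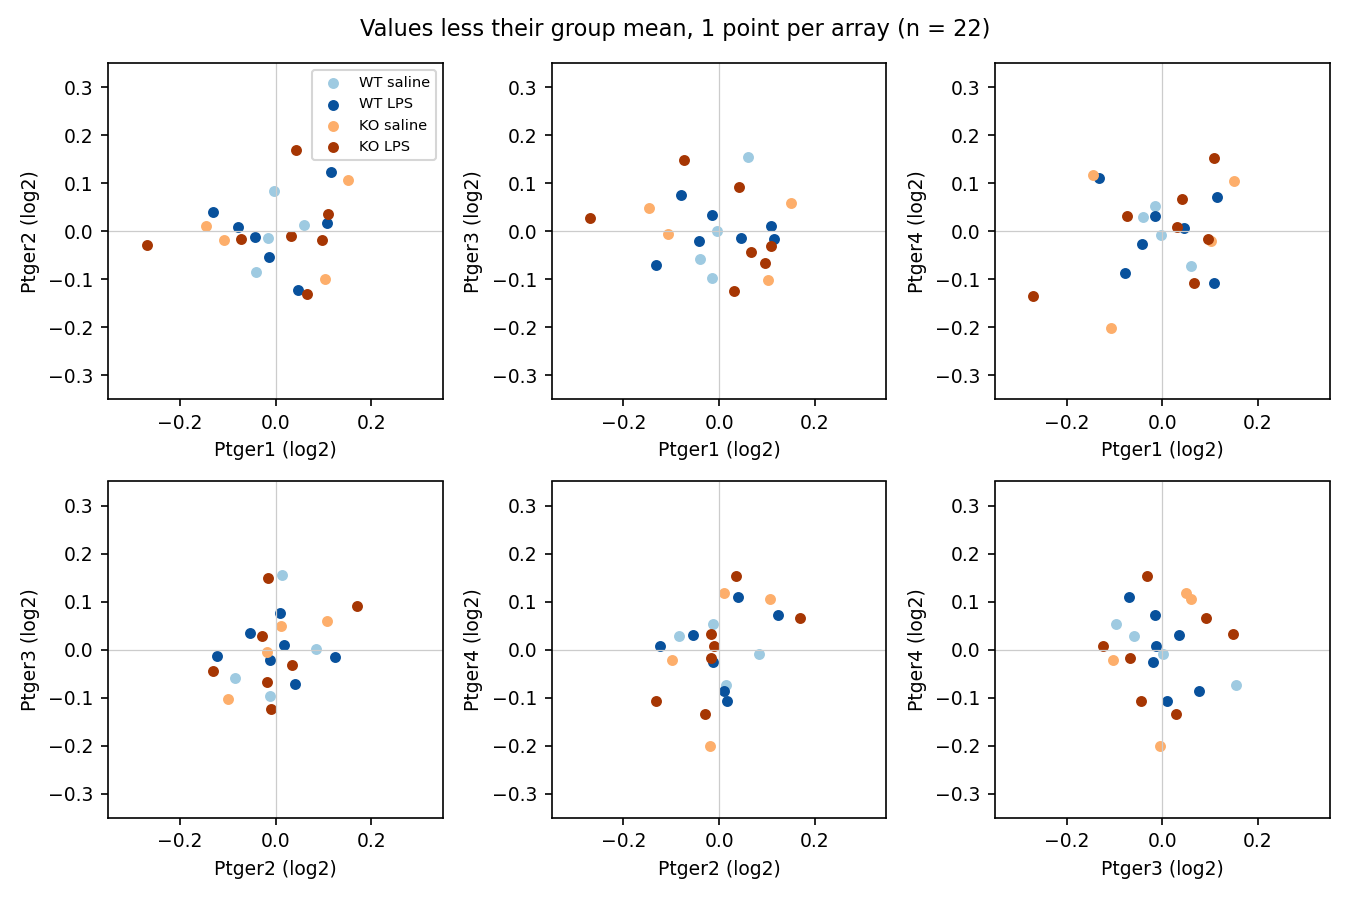
The 6 pairs of receptor genes, with log2 values less their group mean on both axes and 1 point per array (n = 22), coloured by group. Pearson's r runs from -0.143 for Ptger1 and Ptger3 to 0.390 for Ptger2 and Ptger4.

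The genes whose pattern over the 22 arrays was most like that of a receptor gene are given as a description, each being the highest of the 19935 genes. For Ptger1 they were Evx2 (r = 0.763), Hoxa10 (r = 0.744) and Atp1a4 (r = 0.731). For Ptger2 they were Mir431 (r = 0.855), Cd163l1 (r = 0.783) and Golt1a (r = 0.769). For Ptger3 they were Alox5ap (r = 0.692), Olfr869 (r = 0.690) and 4930412M03Rik (r = 0.689). For Ptger4 they were Tfpi2 (r = 0.814), Pcsk4 (r = 0.808) and Vps37c (r = 0.784). All 12 had the rounding step of signals below 8, beside 80.2% of all probe sets. Evx2 and Hoxa10 are homeobox genes of the posterior body and Olfr869 is an olfactory receptor gene, so the lists hold genes that are not known for expression in the hypothalamus. The correlation of Ptgs2 with the receptor genes over the same arrays lay between r = -0.180 for Ptger1 and r = 0.118 for Ptger4.

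The receptors for the other prostanoids were not called either. Of the 5 measured (Ptgdr and Ptgdr2 for prostaglandin D2, Ptgfr for prostaglandin F2 alpha, Ptgir for prostacyclin and Tbxa2r for thromboxane), limma called 0 in either LPS effect. The shares of all genes called were 1.8% in WT and 1.34% in KO. At an unadjusted p under 0.05 there were 0 in WT and 1 in KO, Tbxa2r with -0.17 (SE 0.084, limma adjusted p = 0.848). The shares of all genes at that threshold were 6.42% and 5.84%. For 5 genes these counts are near the background. The median difference of these receptors was -0.0087 in WT and -0.12 in KO, beside -0.011 and -0.0089 over all genes. For the EP receptor genes it was -0.012 in WT and -0.041 in KO.

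Of 10 measured genes that make, carry or break down prostaglandin E2, 2 rose (Ptgs2 and Ptges) and 1 fell (Hpgd) in WT, while 1 rose (Ptgs2) and 1 fell (Hpgd) in KO by limma. The other 7 were called in neither genotype. Of all genes 1.42% rose and 0.376% fell in WT, and 1.08% rose and 0.256% fell in KO. Ptgs2 ran from -1.17 to -0.936 on WT saline arrays and from 0.0054 to 1.20 on WT LPS arrays, without overlap. Its LPS effect was 1.55 (SE 0.22, limma adjusted p = 8.155e-05) in WT and 1.35 (SE 0.22, limma adjusted p = 0.000617) in KO. When the arrays were quantile-normalized again the KO effect was 0.81 and was not called (adjusted p = 0.190, limma). Within the array blocks, with 11 arrays each, the KO effect was 1.25 and 1.38 (limma adjusted p = 0.122 and 0.0516), and the WT effect within arrays 12 to 22 was 1.37 (limma adjusted p = 0.562). Hpgd, which inactivates prostaglandins, fell by 0.33 in WT (SE 0.069, limma adjusted p = 0.00601) and by 0.42 in KO (SE 0.069, limma adjusted p = 0.000496). Within arrays 12 to 22 its effect was -0.32 in WT and -0.36 in KO, neither called (limma adjusted p = 0.682 and 0.0809). Without the 4 arrays with carried-over tissue the WT effect was -0.28 and was not called (limma adjusted p = 0.114). Ptges rose in WT by 0.36 (SE 0.093, limma adjusted p = 0.0467), a call lost in 21 of 31 alternative fits, and had 0.20 (SE 0.093, limma adjusted p = 0.831) in KO.

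Downstream of the receptors lie G proteins, cyclic AMP and its targets. Gnas, Grk2, Prkaca and Rapgef4 belong to the lists of this paragraph but had no single-symbol probe set. The stimulatory alpha subunit encoded by Gnas is therefore not among those counted. Of 10 G protein alpha subunits and 6 kinases and arrestins that switch off receptors, limma called 0 in either LPS effect and 0 averaged over the genotypes. The shares of all genes called were 1.8% in WT, 1.34% in KO and 2.76% averaged. At an unadjusted p under 0.05, 1 alpha subunit passed in WT and 0 in KO, and 0 of the 6 passed in either, beside 6.42% of all genes in WT and 5.84% in KO. In the averaged effect 1 of each passed, beside 9.13%. For lists of this size these counts are near the background. Of 22 genes for making, sensing and degrading cyclic AMP, 0 were called in either genotype and 1 rose and 1 fell in the averaged effect, beside 1.99% of all genes called higher and 0.773% called lower. Adcy8, an adenylyl cyclase, fell by 0.21 (SE 0.048, limma adjusted p = 0.00961), and within arrays 12 to 22 it had -0.11 and was not called (limma adjusted p = 0.818). Rapgef3, an exchange factor activated by cyclic AMP, rose by 0.26 (SE 0.067, limma adjusted p = 0.0267). The Rapgef3 call was lost in 7 of 30 alternative fits, among them those without WT saline replicate 3 or 4 or KO saline replicate 3 or 4 (adjusted p from 0.0647 to 0.0914).

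Of 11 target genes of the cyclic AMP-responsive factor CREB, which other signals also induce, 0 were called in WT or KO alone and 2 rose in the averaged effect, beside 1.99% of all genes. At an unadjusted p under 0.05 there were 4 in WT and 4 in KO, beside 6.42% and 5.84% of all genes. The averaged effect had 7 at that threshold, beside 9.13%. Fos, a subunit of the AP-1 factor and a marker of neuronal activity, ran from -0.19 to -0.022 on WT saline arrays and from 0.022 to 0.56 on WT LPS arrays, while in KO the groups overlapped. Its averaged effect was 0.31 (SE 0.071, limma adjusted p = 0.0123), and the call was lost in 3 of 30 alternative fits. These gave 0.25 without the 4 arrays with carried-over tissue (limma adjusted p = 0.176), 0.33 within arrays 1 to 11 (limma adjusted p = 0.126) and 0.34 within arrays 12 to 22 (limma adjusted p = 0.435). Junb, another AP-1 subunit, had an averaged effect of 0.20 (SE 0.052, limma adjusted p = 0.0379), a call lost in 18 of 30 alternative fits. The median of the 11 genes in the averaged effect was 0.13, beside -0.010 over all genes. In the genotype comparisons and the interaction, 0 of the 64 measured genes of these 6 lists were called by limma. Of all genes 0.0401% were called in KO against WT after LPS, 0.00502% after saline, 0.0251% averaged and 0% in the interaction. At these shares a count of 0 among 64 genes is near the background. At an unadjusted p under 0.05 there were 8 of the 64 in KO against WT after LPS (all genes 11.4%), 7 after saline (5.17%) and 19 averaged (16.3%). The interaction had 0 (1.64%).

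**Figure D4:**
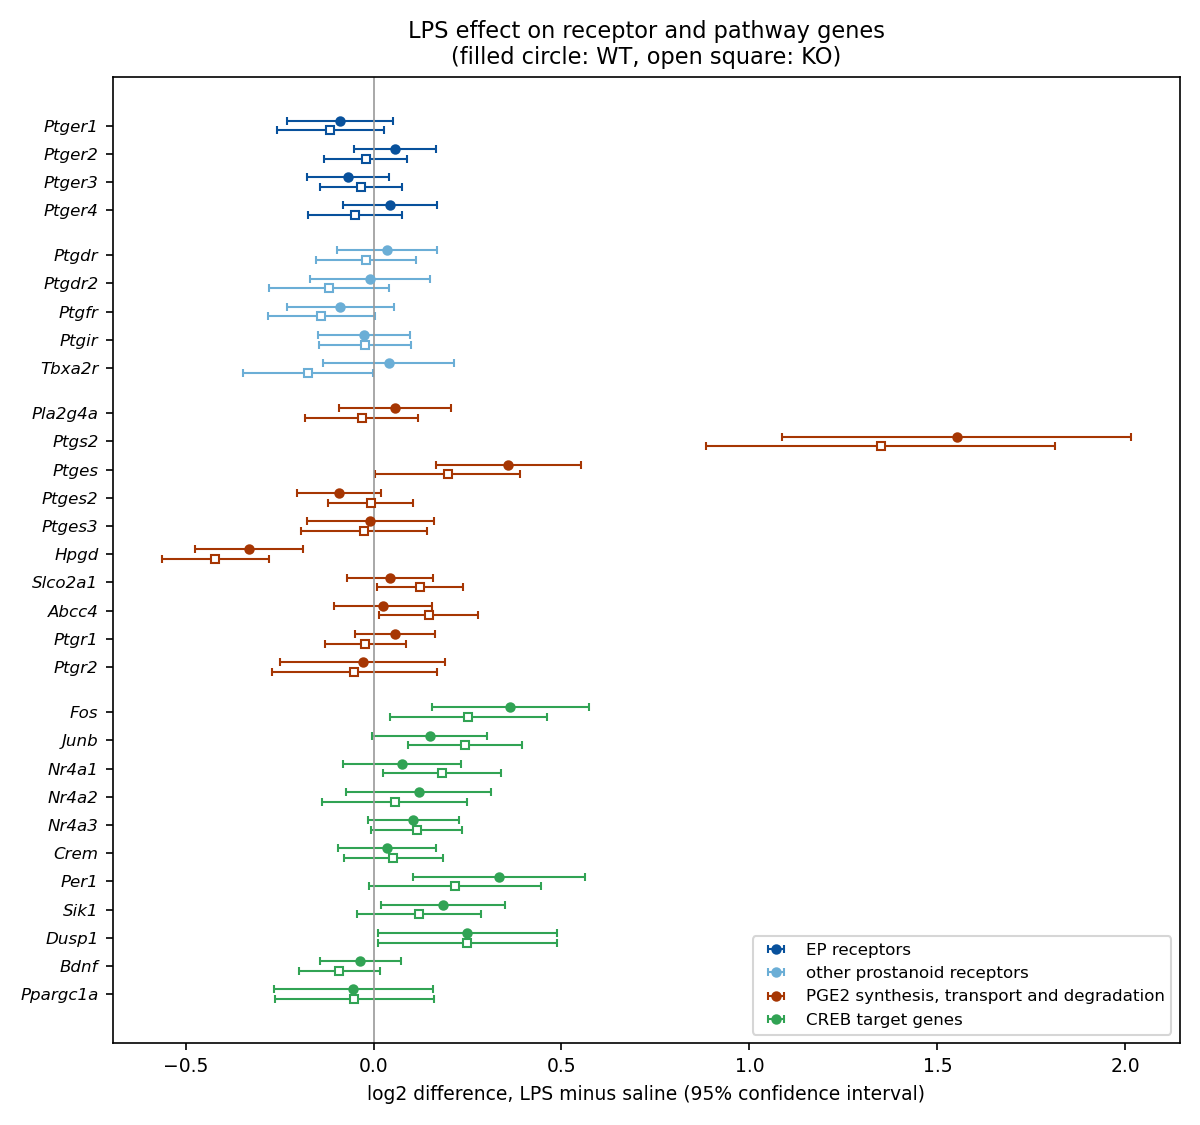
LPS effects (horizontal axis, log2 difference with 95% confidence interval) in WT (filled circles) and KO (open squares) for the EP receptor genes, the other prostanoid receptors, the genes of prostaglandin E2 synthesis, transport and degradation, and CREB target genes (rows). The EP receptor intervals lie between -0.26 and 0.17, while Ptgs2 lies at 1.55 in WT and 1.35 in KO and Hpgd at -0.33 and -0.42.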

How the data were processed

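RNA of the mouse hypothalamus was measured on 22 one-colour Affymetrix arrays. The authors deposited log2 values per probe set, normalized with RMA per the submitters' processing notes. The version, genome build and annotation are not given in the sources used here. Over the 22 arrays every probe set had a median of 0, within 7.02e-07, so the deposited log2 values are differences from the median array. Base 2 was inferred from RMA and from the rounding step of the values, not stated. Depth does not apply to arrays, and the number of arrays limits the precision.

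Of 28815 probe sets, 21780 had a single gene symbol, 1605 several and 5430 none, and the last 2 kinds were left out. Of those with 1 symbol, 21689 matched the RefSeq table of GRCm38.p6 by gene ID. Probe sets of a gene were averaged, giving 19935 genes. All were fitted with limma 3.58.1 in R 4.3.3 (lmFit and eBayes, 4 group means, no covariate), and Benjamini-Hochberg adjustment ran over all genes within a comparison. A call is an adjusted p under 0.05. Correlations used numpy 2.4.6 in Python 3.11.15 with 100000 permutations. The code was tested on simulated data.

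The genes named were the 4 receptor genes, the 3 genes most correlated with each, called members of the other lists (at most 4 a list), Ptgs2, Ptges, Hpgd, Il6, and tissue markers whose values stand beside a result. Tbxa2r, Ptgfr and the other prostanoid receptors were named after their values were seen. The members and lists were chosen with earlier results of these data known. Alternatives were each probe set alone, quantile normalization, median centring, array weights, the groups of a comparison alone, arrays 1 to 11 and 12 to 22 as a term or alone, and leaving out each array or the 4 arrays with carried-over tissue. Array number is the number in the labels, and nothing says that the blocks were processed apart. The labels give no replicate numbers. Those used here count the arrays of a group in order of array number. WT saline replicate 4 is thus array 19, KO LPS replicate 5 array 16 and KO LPS replicate 7 array 20. Listed genes without a single-symbol probe set (Ptgs1, Gnas, Prkaca, Rapgef4, Grk2, Agrp, Pou1f1) were not analysed here.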

Additional observations from a re-analysis of the deposited data

How the results depend on the processing

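Over the 28 receptor results and 31 other settings, 856 values were computed, and 0 passed the threshold by limma. The smallest adjusted p was 0.183, for Ptger4 in KO against WT after LPS without KO LPS replicate 1. The sign was the same in 810 values and the other in 46, the largest of these being 0.090 in size. With the array blocks as a term, Ptger2 in KO against WT after LPS had -0.0057 and Ptger4 in KO against WT after saline 0.031. Within arrays 1 to 11, the LPS effect in KO was 0.090 for Ptger2 and 0.053 for Ptger4, and the averaged LPS effect of Ptger4 was 0.050. There KO against WT gave 0.0012 after LPS, 0.065 after saline and 0.033 averaged for Ptger1 and -0.012 after saline for Ptger2, and the interaction was 0.029 for Ptger2 and 0.0076 for Ptger4. Within arrays 12 to 22, the averaged LPS effect of Ptger2 was -0.0062, KO against WT after LPS was -0.0037 for Ptger2 and 0.011 for Ptger3, KO against WT for Ptger4 was 0.072 after saline and 0.0028 averaged, the interaction of Ptger1 was 0.0092, and the LPS effect of Junb in WT was -0.033. The averaged LPS effect of Ptger4 was 0.013 with array weights, 0.013 after quantile normalization and 0.0030 after median centring, and the interaction of Ptger1 was 0.00040 with array weights. Without the 4 arrays with carried-over tissue, Ptger2 had -0.023 in the averaged LPS effect and -0.0044 in KO against WT after LPS, and Ptger4 had 0.068 in KO against WT after saline. For pairs of genes, r of Ptger1 and Ptger3 was 0.164 within arrays 1 to 11 and 0.0787 with group means kept, and r of Ptger3 and Ptger4 was 0.488 within arrays 12 to 22. The causes were not tested.

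Leaving out each array in turn, the interaction ran from -0.073 to 0.026 for Ptger1 and from -0.018 to 0.066 for Ptger3, KO against WT after LPS from -0.025 to 0.025 for Ptger2, the LPS effect in KO from -0.054 to 0.014 for Ptger2, KO against WT after saline from -0.048 to 0.058 for Ptger4, and the averaged LPS effect from -0.036 to 0.017 for Ptger4. Among all genes, calls in KO against WT numbered 8 after LPS (0 to 614, the highest with array weights, and 47 without KO LPS replicate 1), 5 averaged (1 to 2054, the highest with array weights, and 173 without KO LPS replicate 1) and 1 after saline (0 to 2). LPS calls numbered 359 in WT (45 within arrays 12 to 22, up to 432), 267 in KO (145 within arrays 1 to 11, up to 317) and 550 averaged (209 within arrays 12 to 22, up to 678), and interaction calls 0 in each setting run. Within a block a group can hold 1 array, whose spread is taken to be that of the other groups. The groups of a comparison alone give no value for averaged effects or the interaction. No paired analysis was run because the labels do not pair any arrays.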
